A study of Mus musculus with 7 samples.

Results

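Kidneys of diabetic mice given an SGLT2 inhibitor were compared with kidneys of diabetic mice left without it, to see which genes and functions differed once blood glucose had been lowered. The comparison used 4 of the 7 RNA-seq libraries of the study, 2 from untreated diabetic mice (DM-22, replicates 1 and 2) and 2 from treated diabetic mice (DM+SGLT2i, replicates 1 and 2), and no library of a nondiabetic control. The libraries were chosen by their sample titles, and the numbers 1 and 2 do not pair a treated with an untreated mouse. All 4 mice were wild-type C57BL/6, male according to the labels, and 8 to 10 weeks old at the start, and all had been made diabetic with low doses of streptozotocin, which kills insulin-producing cells, injected on 5 days at 60 mg/kg. Both groups were studied 22 weeks after the onset of hyperglycemia. The DM+SGLT2i mice also received dapagliflozin at 25 mg/kg in the drinking water over the last 6 of these weeks, after 16 weeks of untreated hyperglycemia. The drug acts on the whole animal, so that a difference can follow from the drug itself, from lower blood glucose or from more glucose in the tubular fluid, and these cannot be told apart here. The labels do not say outright that the libraries of a group came from separate mice, and the p-values measure only the spread between these libraries.

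SGLT2, encoded by Slc5a2, is the sodium-glucose cotransporter that takes up most of the filtered glucose in the first part of the proximal tubule. SGLT1, encoded by Slc5a1, takes up the remainder further along, and GLUT2, encoded by Slc2a2, lets glucose leave the cell on the blood side. Proximal tubule cells burn fatty acids, make glucose when fasting, and show injury markers when damaged, while the interstitium between the tubules holds the fibroblasts, macrophages and dendritic cells that respond to injury.

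The libraries held between 47422599 and 56541594 reads on the 17537 listed genes, and the 13557 genes that reached 1 CPM in 2 or more of the 4 libraries were tested. CPM, the unit of the levels below, are reads scaled to the size of the library and are not divided by the length of the gene, so levels are compared here between libraries and not between genes. Differences are DM+SGLT2i minus DM-22 on the log2(CPM + 0.5) scale, each with its standard error from limma and 2 libraries per group. No gene passed an adjusted p of 0.05 in either direction (0% of the genes tested), and the smallest adjusted p by limma with Benjamini-Hochberg adjustment was 0.461. At an unadjusted limma p under 0.05, 559 genes were higher (4.12% of those tested) and 145 were lower (1.07%). Their sum, 704, lay close to the 678 genes that this threshold would pass if no gene differed. The higher genes made up 79.4% of the 704 with TMM scaling, 93.0% with scaling to the library total and 67.7% with median-of-ratios scaling. Values of both DM+SGLT2i libraries lay above both DM-22 values for 2858 genes (21.1%) and below them for 2779 (20.5%). With a difference of at least 1.5-fold as well, 836 genes were higher (6.17%) and 117 were lower (0.863%). The median difference over all genes was 0.0001. The words higher and lower below give the direction of the values and are no calls.

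The adjusted counts depended on the DM-22 libraries, which differed from each other more than the treated libraries did. The SD over genes of the log2 difference between the 2 libraries was 0.678 for DM-22 and 0.393 for DM+SGLT2i. DM-22 replicate 1 held more RNA of the thick ascending limb and replicate 2 more RNA of the distal convoluted tubule and of intercalated cells. Slc12a1, the sodium-potassium-chloride cotransporter of the thick ascending limb, stood at 5580 and 602 CPM in the DM-22 libraries and at 1465 and 2549 CPM in the DM+SGLT2i libraries. Slc12a3, the thiazide-sensitive cotransporter of the distal convoluted tubule, stood at 340 and 1523 CPM against 1139 and 988 CPM. For both genes the treated pair lay between the untreated pair. Without DM-22 replicate 1, limma called 366 genes higher and 103 lower after adjustment, and without DM-22 replicate 2 it called 162 higher and 62 lower. These fits assume that the lone DM-22 library would vary like the treated ones. Leaving out either DM+SGLT2i library gave 0 adjusted calls, and without DM+SGLT2i replicate 1 the genes at an unadjusted p under 0.05 numbered 95 higher and 6 lower.

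DM+SGLT2i replicate 1 stood apart in RNA of fat, smooth muscle and urothelium. Adipoq, the adipocyte hormone adiponectin, reached 76.0 CPM there, against 0.162 and 0.139 CPM in DM-22 and 0.361 CPM in DM+SGLT2i replicate 2. Plin1, which coats fat droplets, reached 46.4 CPM against at most 0.145 CPM, and Cfd, a complement factor made by fat cells, reached 687 CPM against at most 2.78 CPM. Myh11, smooth muscle myosin, stood at 207 CPM against 21.2 to 33.7 CPM, Krt5, a keratin of basal urothelium, at 34.7 CPM against at most 1.15 CPM, and Upk1b, a urothelial plaque protein, at 31.8 CPM against at most 3.51 CPM. Of the 12 urothelial and papillary genes tested, 11 were positive, all but Krt7, with differences from -0.03 to 2.48. Their median of 1.60 was -0.13 without DM+SGLT2i replicate 1 and 3.48 without DM+SGLT2i replicate 2. Results that rest on this library are given with and without it. The kidney markers set for the check were present in every library, among them Lrp2, the endocytic receptor megalin of the proximal tubule, at 1437, 1838, 1950 and 1799 CPM. In whole tissue, fewer cells of a type and less RNA per cell cannot be told apart.

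**Figure D1:**
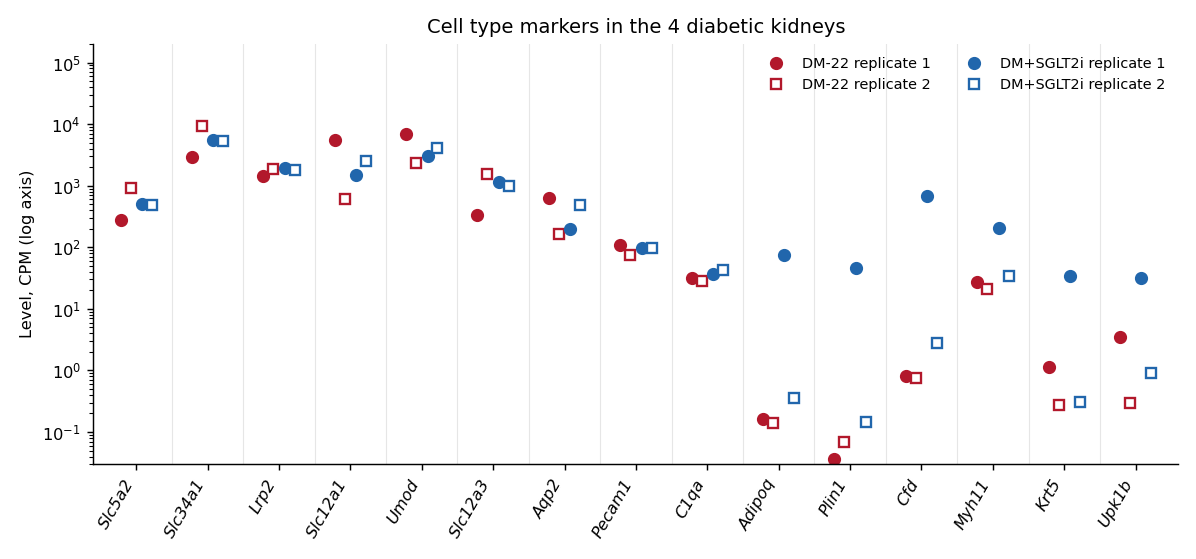
Level in CPM (log axis) of 15 marker genes in each of the 4 libraries, with DM-22 in red, DM+SGLT2i in blue, filled circles for replicate 1 and open squares for replicate 2. For Slc5a2, Slc12a1 and Slc12a3 the DM-22 libraries lie on either side of the treated ones, and for Lrp2 they do not. Adipoq, Plin1, Cfd, Krt5 and Upk1b are high in DM+SGLT2i replicate 1, with Adipoq at 76.0 CPM there and at most 0.361 CPM elsewhere.

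Genes of the interstitial matrix and of fibroblasts were higher in the treated kidneys. All 27 members tested had a positive difference, from 0.14 to 2.45, and for 23 of them both treated values lay above both untreated values, against 21.1% of all genes. The exceptions were Thbs1, Dcn, Tnc and Lox, whose groups overlapped. The median difference was 1.11 on the log2 scale, against 0.0001 over all genes. At an unadjusted limma p under 0.05, 15 members were higher (55.6%), against 4.12% of all genes. Without DM+SGLT2i replicate 1 the median was 0.92, and 24 of the 27 members were above both untreated values in DM+SGLT2i replicate 2, as were 26.6% of all genes, with 33.4% of all genes above them in replicate 1. The median lay at 1.03 without DM-22 replicate 2 and at 1.56 without DM-22 replicate 1.

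The fibrillar collagens, which form the fibers of scar tissue, led the list. Col1a1 stood at 21.5 and 21 CPM in the DM-22 libraries and at 114 and 81.9 CPM in the DM+SGLT2i libraries, and Col3a1 at 20.2 and 15 against 115 and 82.3 CPM. Both treated libraries were several times above both untreated ones, with differences of 2.16 ± 0.21 and 2.45 ± 0.25, or 4.48-fold and 5.45-fold. Col1a2, the partner chain of Col1a1, stood at 69.2 and 42.0 CPM against 145 and 122 CPM, a smaller difference of 1.29 ± 0.28. Fn1, the adhesive matrix protein fibronectin, stood at 27.3 and 22.2 CPM against 140 and 83.1 CPM, with a difference of 2.11 ± 0.29. Mmp2, a gelatinase that cuts collagen, had the smallest p of all genes, with 4.82 and 4.32 CPM in DM-22 and 20.7 and 20.3 CPM in DM+SGLT2i. Its difference was 2.05 ± 0.18 (limma, adjusted p = 0.461) and was 2.04 without DM+SGLT2i replicate 1.

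Further matrix genes outside the list were among the 15 higher genes with the smallest p. Ltbp2, which binds microfibrils, stood at 0.864 and 0.601 CPM against 7.05 and 5.80 CPM. Prelp, a leucine-rich proteoglycan, was nearly equal within each group, at 34.5 and 34.7 CPM against 74.2 and 75.2 CPM. Cdh11, a cadherin of fibroblasts, Svep1, a large adhesion protein, and Thbs2, a thrombospondin, were 2.72-fold, 3.02-fold and 2.55-fold higher, with no overlap of the groups. Pdgfra and Pdgfrb, receptors that mark fibroblasts and pericytes, were also above both untreated values in both treated libraries, with differences of 1.11 ± 0.33 and 0.83 ± 0.20. Tgfb1, the growth factor best known for driving matrix production, differed little, at 29.8 and 27.3 CPM against 31.1 and 31.8 CPM.

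Acta2 and Postn, which mark myofibroblasts, depended on 1 library. Acta2, smooth muscle actin, stood at 63.8 and 35.1 CPM in DM-22 and at 212 and 67.2 CPM in DM+SGLT2i, and Postn, periostin, at 1.75 and 0.439 CPM against 17.2 and 2.22 CPM. Their differences were 1.33 and 2.26, and 0.50 and 0.91 without DM+SGLT2i replicate 1, the library with smooth muscle and fat RNA. The 6 smooth and striated muscle genes tested were all higher, with a median of 1.36 and of 0.52 without that library, and the summed level of the list was 210 and 142 CPM in DM-22 against 854 and 260 CPM. Of the 7 adipose genes tested 6 were higher, all but Lpl, with a median of 0.97 and of 0.01 without that library. The part of those tissues in the matrix genes was not tested.

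**Figure D2:**
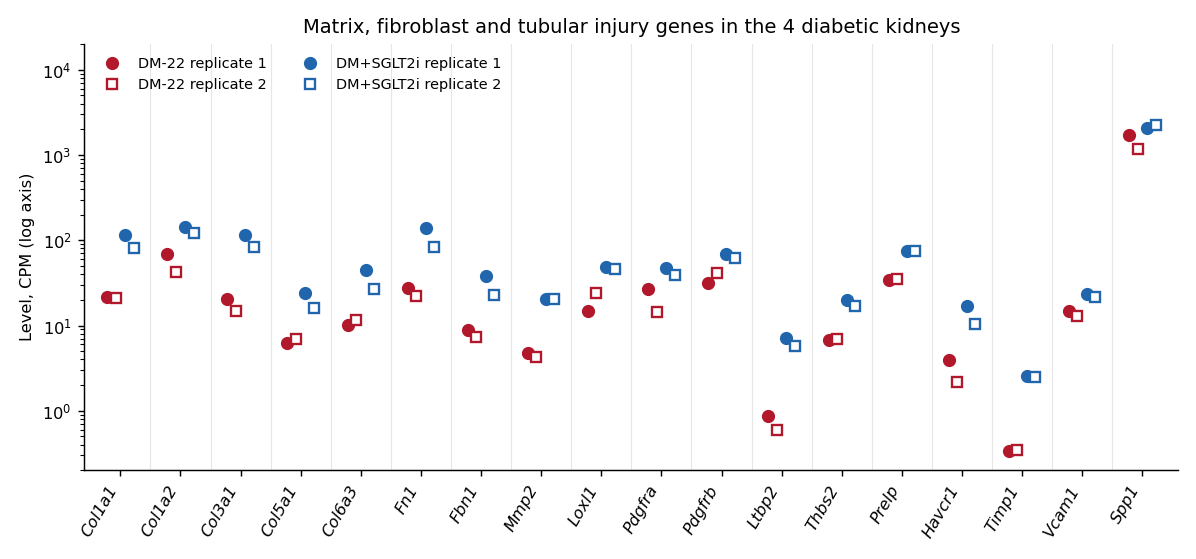
Level in CPM (log axis) of 18 matrix, fibroblast and tubular injury genes in each library, with DM-22 in red, DM+SGLT2i in blue, filled circles for replicate 1 and open squares for replicate 2. Both blue values lie above both red ones for each gene shown, as for Col1a1 with 114 and 81.9 CPM against 21.5 and 21 CPM. The genes are a selection, and genes whose groups overlap, such as Thbs1, Dcn, Tnc, Lox and Lcn2, are not shown.

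Basement membrane genes, which encode the sheets under epithelia and around capillaries, were shifted less. Of 20 tested, 19 had a positive difference, Col4a4 being the exception, and 10 (50%) lay above without overlap, against 21.1% of all genes. The median was 0.36, and 0.25 without DM+SGLT2i replicate 1 or without DM-22 replicate 2. Nid1, the linker protein nidogen, had 49.96 and 48.1 CPM in DM-22 and 119 and 87.3 CPM in DM+SGLT2i, a difference of 1.05 ± 0.20. The paired collagen IV genes Col4a1 and Col4a2, which share a promoter region, differed alike, by 0.66 ± 0.21 and 0.65 ± 0.21.

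Markers of tubular injury were higher for 23 of 26 members, the others being Krt8, Anxa2 and Tnfrsf12a. The differences ranged from -0.13 to 2.51 with a median of 0.56, 15 members were above and 1 was below without overlap, against 21.1% and 20.5% of all genes. An unadjusted limma p under 0.05 in the higher direction was found for 9, against 4.12% of all genes. Havcr1, the injury marker KIM-1 of proximal tubule cells, stood at 3.98 and 2.17 CPM in DM-22 and at 16.9 and 10.4 CPM in DM+SGLT2i. Both treated values were above both untreated ones, a difference of 1.99 ± 0.37 (limma, adjusted p = 0.740), and 1.65 without DM+SGLT2i replicate 1. Timp1, an inhibitor of matrix proteases, was 0.342 and 0.347 CPM against 2.56 and 2.51 CPM, a difference of 1.85 ± 0.28. Vcam1, an adhesion molecule of injured tubule cells and endothelium, was 15 and 12.9 CPM against 23.5 and 21.5 CPM.

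Not every injury gene followed. Lcn2, the secreted injury marker NGAL, differed more within DM-22, at 52.7 and 2.13 CPM, than between the groups, with 11.6 and 25.9 CPM in DM+SGLT2i. Krt20 was 0.522 and 0.416 CPM against 9.90 and 1.35 CPM, and its difference of 2.18 was 0.94 without DM+SGLT2i replicate 1, where urothelial keratins were also high. Clu, the secreted chaperone clusterin, stood at 292 and 635 CPM against 706 and 810 CPM, with no overlap but an interval of the difference from -0.26 to 1.88. The median of the list was 0.82 without DM-22 replicate 1 and between 0.47 and 0.61 when another library was left out.

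Immune genes were higher in the treated kidneys in several lists. Complement genes had a median difference of 0.72, with 17 of 20 positive and Cd59a, C5ar1 and Cd55 negative. Of the 20, 14 (70%) lay above without overlap, against 21.1% of all genes. The range was -0.36 to 5.22, the upper end being Cfd, which was high in the library with fat RNA. The median was 0.66 without DM+SGLT2i replicate 1, and 15 members were above both untreated values in replicate 2, against 26.6% of all genes. C3, the central complement protein, stood at 25.2 and 38.2 CPM in DM-22 and at 224 and 94.1 CPM in DM+SGLT2i, a difference of 2.21 ± 0.46, and of 1.59 without DM+SGLT2i replicate 1. Masp1, a protease of the lectin pathway, was 4.19 and 1.83 CPM against 11.5 and 10.0 CPM.

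Macrophage and myeloid genes were positive for 24 of 25 members, S100a9 being the exception, with a median of 0.42. Of the 25, 20 (80%) lay above without overlap, against 21.1% of all genes. The median lay between 0.28, without DM-22 replicate 2, and 0.56, without DM-22 replicate 1. Mrc1, the mannose receptor of tissue macrophages, stood at 6.41 and 3.38 CPM in DM-22 and at 15 and 13.0 CPM in DM+SGLT2i, and Cd163, a hemoglobin scavenger receptor, at 0.756 and 0.0925 CPM against 3.07 and 1.88 CPM. Gpnmb, a protein of lipid-laden macrophages, was 0.378 and 0.416 CPM against 1.76 and 3.41 CPM. General markers differed less, as Adgre1, the F4/80 antigen, at 13.8 and 10.1 CPM against 13.9 and 16.5 CPM, and Cd68, a lysosomal protein, at 5.60 and 5.55 CPM against 8.77 and 8.74 CPM. Csf1r, the receptor for macrophage growth factor, overlapped between the groups.

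Chemokines and cytokines were positive for 34 of 38 members, with a range from -1.01 to 2.25 and a median of 0.46. Of the 38, 22 lay above (57.9%) and 2 below (5.26%) without overlap, against 21.1% and 20.5% of all genes. Ccl28, Il34, Tnfrsf1a and Il1b were negative. Ccl8, a chemokine that draws monocytes, was 0.378 and 0.116 CPM in DM-22 and 2.66 and 3.36 CPM in DM+SGLT2i, a difference of 2.25 ± 0.34. Its receptor Ccr2 stood at 2.84 and 6.64 CPM against 11.9 and 7.93 CPM, with no overlap. Ccl28, a chemokine of mucosal epithelia, went the other way, with 23.8 and 26.9 CPM against 9.75 and 15.6 CPM, a difference of -1.01 ± 0.26. Il1b stayed close to 1 CPM in each library, from 0.978 to 1.04 CPM.

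Interferon-stimulated genes were positive for 30 of 34 members, with differences from -0.47 to 0.95 and a median of 0.47. Of the 34, 21 (61.8%) lay above without overlap, against 21.1% of all genes. The negative members were Ifi44, Cmpk2, Rsad2 and Ifi35. Ddx58, the RNA sensor RIG-I, stood at 24.7 and 25.0 CPM in DM-22 and at 41.7 and 39.9 CPM in DM+SGLT2i, and Stat2, a transcription factor of the pathway, at 12.8 and 10.5 CPM against 22.6 and 17.8 CPM. Ifit3, often among the most inducible members, spread from 17.4 to 96.8 CPM within DM-22, and both treated values fell inside that range. The list depended on the DM-22 libraries, since its median was 0.21 without that library and 0.74 without DM-22 replicate 1. MHC class II genes, which present peptides to T cells, were positive for 8 of 9 members, all but H2-Ob, with a median of 0.34 and of 0.22 without DM+SGLT2i replicate 2. Their transcriptional activator Ciita was 2.70 and 3.47 CPM against 8.73 and 5.33 CPM, a difference of 1.04 ± 0.31.

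The antibody genes split by class, within a list of B and plasma cell genes that had no shared direction. Of its 12 members tested, 6 were higher and 6 were lower, with a median of -0.02. Its 5 members above without overlap (41.7%) and 3 below (25%) compare with 21.1% and 20.5% of all genes. That median was -0.34 without DM-22 replicate 1 and 1.24 without DM-22 replicate 2. The IgG constant regions were higher in both treated libraries, with Ighg2b at 0.864 and 1.25 CPM in DM-22 and 10.0 and 8.85 CPM in DM+SGLT2i, Ighg2c at 1.58 and 1.43 against 9.43 and 8.69 CPM, and Ighg1 at 2.38 and 2.2 against 20.9 and 10.6 CPM. These were 6.43-fold, 4.76-fold and 5.52-fold differences, and all 3 genes were among the 15 higher genes with the smallest p. The IgA constant region Igha was 19.1 and 180 CPM against 27.4 and 88.3 CPM, and the light chain Igkc and the joining chain Jchain spread in the same way, with the treated values inside the untreated range. Reads of the near-identical IgG genes can be shared between them, so their separate levels are uncertain.

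**Figure D3:**
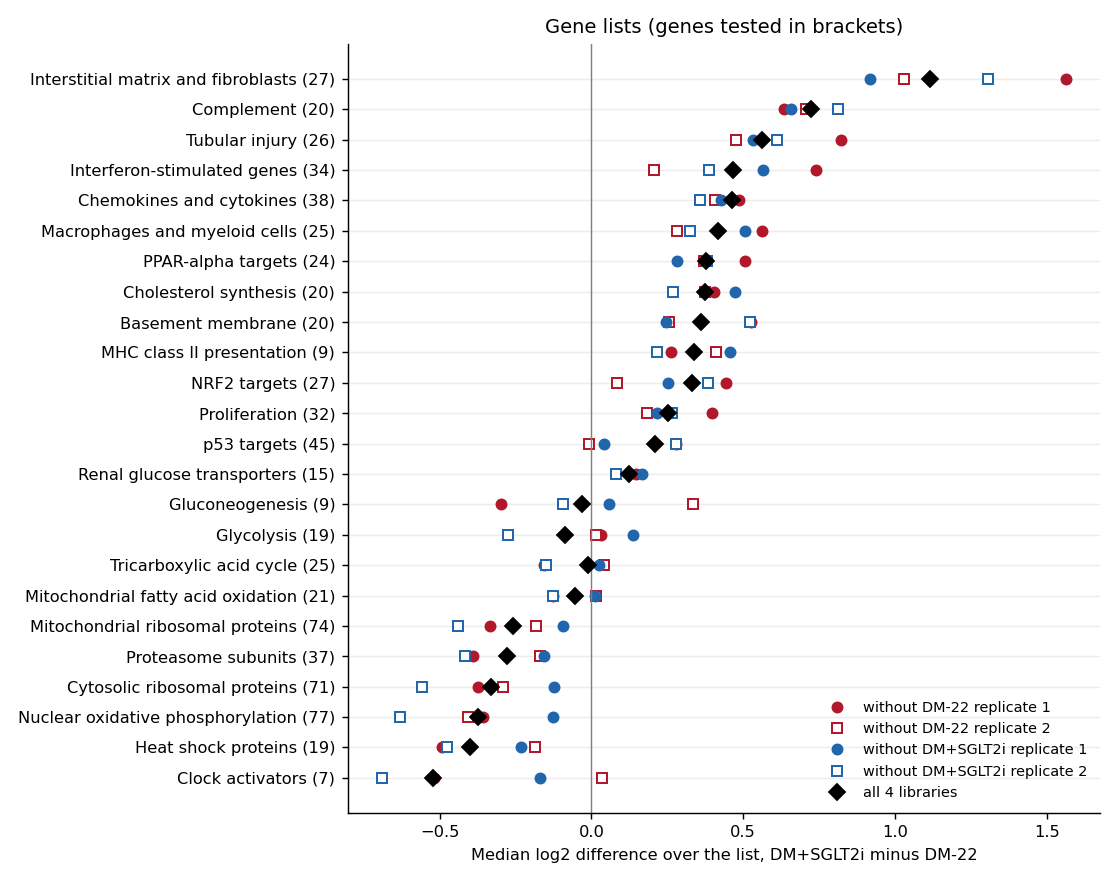
Median log2 difference (DM+SGLT2i minus DM-22) over the tested genes of 24 lists, with a black diamond for all 4 libraries and colored marks for the fits that leave out 1 library. Matrix, complement and injury genes lie to the right under each fit, from 0.47 upward, and ribosomal, oxidative phosphorylation and proteasome genes lie to the left but move toward 0 without DM+SGLT2i replicate 1.

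Genes of cholesterol supply were higher as well. Cells short of sterol release the transcription factor SREBP2 from the endoplasmic reticulum, which switches on the enzymes of cholesterol synthesis and genes of sterol uptake. Of 20 synthesis enzymes, 18 had a positive difference, all but Ebp and Tm7sf2, with a median of 0.37. Both treated values lay above both untreated ones for 9 (45%), against 21.1% of all genes. At an unadjusted limma p under 0.05, 5 were higher (25%), against 4.12% of all genes. The median was 0.47 without DM+SGLT2i replicate 1 and 0.27 without DM+SGLT2i replicate 2. Of the 20 enzymes, 9 were above both untreated values in DM+SGLT2i replicate 1, against 33.4% of all genes, and 14 were in replicate 2, against 26.6%.

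Promoters of these genes were read from RefSeq on build GRCm38.p6, from 250 bases before to 50 bases after the transcription start. 30 of the 41 members of the synthesis list and of the list of sterol sensing, uptake and efflux genes had an entry. The sterol regulatory element, searched as TCACNCCAC on both strands, was present in 1 of the 30, Hmgcs1, against 1.44% of all genes with a promoter of the same length. A stricter form of the element, longer and with every base fixed, was in 0 of the 30 against 0.0999% of all genes. The E-box CACGTG was found in 6 of the 30, Insig1 among them, against 8.09% of all genes. The CCAAT box, searched as CCAAT on both strands and added after the values had been seen, was in 21 of the 30 and in 14 of the 15 synthesis genes with an entry, against 41.1% of all genes and 12 of the 16 clock genes looked at for comparison. Counted by promoter, 22 of the 41 promoters of the 30 genes held a CCAAT box, against 37.4% of all promoters, 1 held the sterol element, against 1.24%, and 7 held the E-box, against 7.15%. A match describes the letters and shows no binding. The promoters of Hmgcs1, which makes the first committed precursor, Insig1, which holds SREBP back when sterol is ample, and Msmo1, a late demethylase, are shown because all 3 genes were above both untreated values in both treated libraries. Capitals mark TCACNCCAC, CCAAT and CACGTG on either strand. Hmgcs1 is read on the forward strand at chr13:119690101-119690400, Insig1 on the forward strand at chr5:28071162-28071461 and Msmo1 on the reverse strand at chr8:64733529-64733828.
Hmgcs1: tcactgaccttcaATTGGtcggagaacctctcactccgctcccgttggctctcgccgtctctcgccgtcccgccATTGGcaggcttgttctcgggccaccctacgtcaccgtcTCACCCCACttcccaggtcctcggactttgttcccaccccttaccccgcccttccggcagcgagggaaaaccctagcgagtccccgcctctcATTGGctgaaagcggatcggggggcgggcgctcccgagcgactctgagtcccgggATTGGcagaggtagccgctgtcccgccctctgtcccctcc
Insig1: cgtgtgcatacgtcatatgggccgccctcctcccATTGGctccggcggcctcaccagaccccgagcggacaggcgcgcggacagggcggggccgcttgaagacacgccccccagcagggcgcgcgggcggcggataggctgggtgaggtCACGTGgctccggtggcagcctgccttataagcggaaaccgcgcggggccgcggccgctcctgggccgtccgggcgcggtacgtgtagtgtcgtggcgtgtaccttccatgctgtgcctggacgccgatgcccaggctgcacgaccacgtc
Msmo1: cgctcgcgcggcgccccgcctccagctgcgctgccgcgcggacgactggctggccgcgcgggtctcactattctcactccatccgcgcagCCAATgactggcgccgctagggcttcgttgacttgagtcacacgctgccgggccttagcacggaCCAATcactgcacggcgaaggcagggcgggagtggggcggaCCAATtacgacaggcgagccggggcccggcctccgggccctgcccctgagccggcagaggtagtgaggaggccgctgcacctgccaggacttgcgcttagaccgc
The element of Hmgcs1 begins 137 bases before the start and lies between CCAAT boxes, and the E-box of Insig1 begins 101 bases before its start.

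Among the enzymes, Hmgcs1 stood at 387 and 396 CPM in DM-22 and at 529 and 552 CPM in DM+SGLT2i, a difference of 0.46 ± 0.20. Msmo1 was 24.7 and 31.5 CPM against 41.4 and 60.5 CPM and did not overlap between the groups, with a difference of 0.83 ± 0.25. Fdps and Dhcr7, an early and a late enzyme of the pathway, differed by 0.72 ± 0.21 and 0.73 ± 0.20. Sqle, the oxygen-dependent step, was 114 and 55.9 CPM against 114 and 142 CPM, and Cyp51, a lanosterol demethylase, ranged more widely in DM-22, 386 and 96.1 CPM, than between the groups.

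Several genes of sterol sensing and transport were also higher in both treated libraries. Insig1 was 28.0 and 49.0 CPM in DM-22 and 74.8 and 75.0 CPM in DM+SGLT2i, with no overlap although the untreated libraries differed. Stard4, a sterol carrier, was tight in both groups, at 58.4 and 61.1 CPM against 96.6 and 95.1 CPM. Mylip, a ubiquitin ligase that the sterol-sensing receptor LXR switches on, was 32.3 and 36.9 CPM against 55.8 and 54.0 CPM. The efflux pumps Abca1 and Abcg1, also targets of LXR, overlapped between the groups, with differences of -0.27 ± 0.26 and -0.82 ± 0.42. Over all 21 sensing, uptake and efflux genes the median was 0.15. That median was 0.03 without DM-22 replicate 1 and -0.02 without DM-22 replicate 2. Of the 21, 8 lay above without overlap (38.1%), against 21.1% of all genes. The 4 below (Insig2, Mbtps1, Nr1h2 and Nr1h3) were near the 20.5% of all genes. The parts of the list differed. Of 7 uptake genes 6 were positive, with a median of 0.20, and of 7 SREBP regulators 4 were, with a median of 0.10. Of 7 efflux genes 5 were negative, with a median of -0.21.

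**Figure D4:**
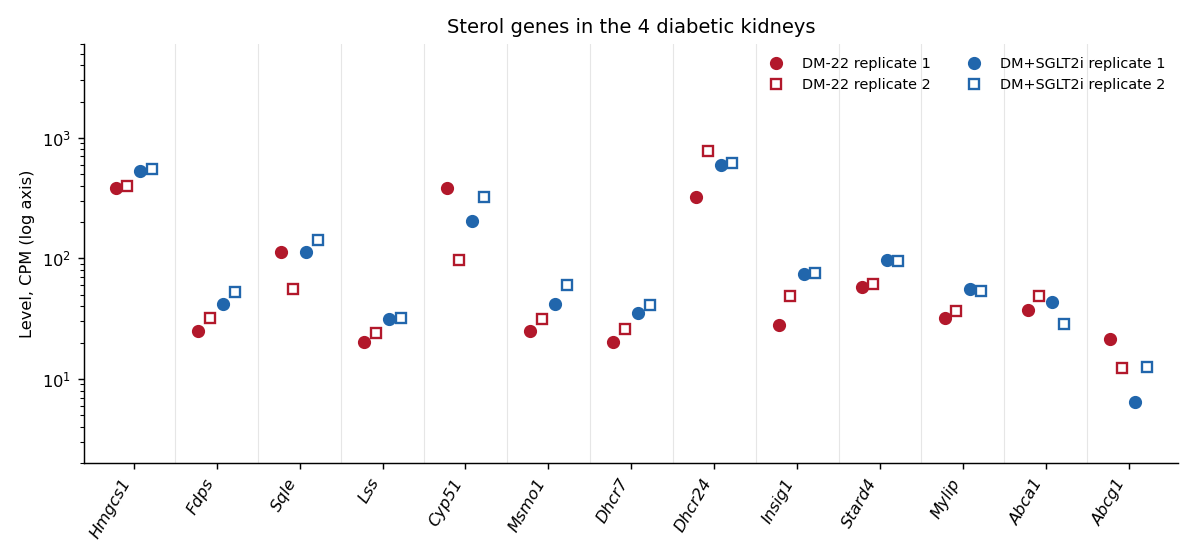
Level in CPM (log axis) of 13 sterol genes in each library, with DM-22 in red, DM+SGLT2i in blue, filled circles for replicate 1 and open squares for replicate 2. Insig1, Stard4 and Mylip lie higher in both treated libraries, as for Stard4 with 96.6 and 95.1 CPM against 58.4 and 61.1 CPM, while Cyp51 and Abca1 overlap.

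Lipid synthesis and lipid burning showed no shared direction. Fatty acid synthesis genes had a median of 0.10, with 12 of 20 positive, and of 0.23 without DM-22 replicate 2 and 0.05 without DM+SGLT2i replicate 1. Within the list, Elovl6, which lengthens fatty acids, stood at 24.7 and 20.1 CPM in DM-22 and at 45.5 and 43.0 CPM in DM+SGLT2i, a difference of 0.97 ± 0.17, and Fasn, fatty acid synthase, at 81.6 and 90.2 CPM against 174 and 123 CPM. Mlxipl, the glucose-sensing factor ChREBP, was 27.8 and 32.4 CPM against 78.0 and 45.1 CPM, a difference of 0.97 and of 0.58 without DM+SGLT2i replicate 1, where fat RNA was present. Mitochondrial fatty acid oxidation genes had a median of -0.05 with 7 of 21 positive, and genes of ketone body metabolism a median of -0.04, and both turned positive, to 0.05 and 0.07, with scaling to the library total.

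Targets of PPAR-alpha, the fasting and fatty acid receptor, had a median of 0.38 with 19 of 24 positive. Of the 24, 9 lay above (37.5%) and 1 below (4.17%) without overlap, against 21.1% and 20.5% of all genes. At an unadjusted limma p under 0.05, 1 target was higher (4.17%), near the 4.12% of all genes. Cyp4a14, a fatty acid hydroxylase, stood at 280 and 17.6 CPM in DM-22 and at 581 and 470 CPM in DM+SGLT2i, so its difference of 2.88 ± 1.26 rested largely on the low value of DM-22 replicate 2. Its neighbor Cyp4a10, whose reads can be shared with related genes, was 1149 and 324 CPM against 1007 and 1122 CPM and overlapped. Outside that list, Acsf2, which activates fatty acids in mitochondria, was among the 15 higher genes with the smallest p. It stood at 32.6 and 37.8 CPM in DM-22 against 104 and 81.9 CPM in DM+SGLT2i.

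The drug's target gene was not separated by treatment. Slc5a2, on chromosome 7 from 128265657 to 128272430 of the forward strand of GRCm38, stood at 274 and 930 CPM in DM-22 and at 509 and 479 CPM in DM+SGLT2i. The treated values lay between the untreated ones, and the difference of -0.03 had a 95% interval from -1.55 to 1.49, which leaves changes of either sign possible. Slc5a1 was 114 and 77.3 CPM against 144 and 148 CPM, above both untreated values in both treated libraries, with a difference of 0.63 ± 0.23 (limma, adjusted p = 0.740). Slc2a2 was 108 and 216 CPM against 270 and 213 CPM and overlapped. Over 15 glucose transporter genes the median was 0.12. Of these genes, 3 lay above (20%) and 2 below (13.3%) without overlap, against 21.1% and 20.5% of all genes.

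Genes that make or use glucose showed no stable direction as lists. Gluconeogenesis genes had a median of -0.03, glycolysis genes of -0.09 and genes of the tricarboxylic acid cycle of -0.01, and with scaling to the library total these were 0.08, 0.02 and 0.10. The gluconeogenesis median was -0.30 without DM-22 replicate 1 and 0.33 without DM-22 replicate 2. The glycolysis median was 0.03 without DM-22 replicate 1, 0.14 without DM+SGLT2i replicate 1 and -0.28 without DM+SGLT2i replicate 2. The tricarboxylic acid cycle median lay between -0.16 and 0.04 with 1 library left out. Pck1, the rate-limiting enzyme of gluconeogenesis, was above the untreated range, at 980 and 1851 CPM in DM-22 and 2427 and 2043 CPM in DM+SGLT2i, with an interval of the difference from -0.41 to 1.86. G6pc, the last enzyme of the pathway, was 203 and 947 CPM against 323 and 457 CPM, inside the untreated range. Txnip, which cells induce when glucose is high, was 798 and 188 CPM against 558 and 402 CPM, also inside that range.

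Of the insulin and IGF signaling genes, a share near that of all genes lay above without overlap, and the members with the smallest p are given here. Irs2, an adaptor of the insulin receptor, stood at 15 and 24.5 CPM in DM-22 and at 49.4 and 42.3 CPM in DM+SGLT2i, a difference of 1.23 ± 0.27. Igfbp1, a secreted protein that binds IGF, was 4.12 and 3.75 CPM against 19.4 and 8.06 CPM, and Igfbp2 was 1.31 and 1.11 CPM against 36.5 and 5.84 CPM. Their differences were 1.56 and 3.16, and 0.95 and 1.89 without DM+SGLT2i replicate 1. The 27 insulin and IGF signaling genes had a median of 0.25 and of 0.08 without that library, with 7 above (25.9%) and 2 below without overlap, against 21.1% and 20.5% of all genes. Cyp27b1, which makes active vitamin D, was 4.52 and 8.67 CPM against 13.9 and 15.7 CPM.

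Detoxifying enzymes were mixed. Of 38 antioxidant and conjugation enzymes tested, 27 were lower, with a median of -0.18. The 8 below without overlap (21.1%) were near the 20.5% of all genes, and 1 lay above (2.63%), against 21.1%. The median was -0.02 without DM-22 replicate 2 and -0.04 without DM+SGLT2i replicate 1. The 49 cytochrome P450 genes had a median of 0.03, and of -0.06 without DM+SGLT2i replicate 2. Their 5 above (10.2%) and 2 below (4.08%) without overlap were fewer than the 21.1% and 20.5% of all genes. Some single genes were separated upward. Aldh1a1, which makes retinoic acid, stood at 40.4 and 32.0 CPM in DM-22 and at 92.2 and 93.2 CPM in DM+SGLT2i, a difference of 1.35 ± 0.17, though reads can be shared with its close copy Aldh1a7. Cyp1b1, which oxidizes steroids and pollutants, was 27.7 and 24.8 CPM against 67.7 and 56.8 CPM. The glutathione transferases Gsta1 and Gsta2, which are near copies of each other, differed by 1.08 ± 0.22 and 1.05 ± 0.25. The 27 targets of NRF2, the oxidative stress factor, had a median of 0.33, and of 0.09 without DM-22 replicate 2. Of them, 11 lay above (40.7%) and 2 below (7.41%) without overlap, against 21.1% and 20.5% of all genes.

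Genes of protein synthesis, respiration and protein breakdown were lower, and more so in DM+SGLT2i replicate 1 than in replicate 2. All 71 cytosolic ribosomal protein genes had a negative difference, or 70 with scaling to the library total, with a median of -0.33, and 59 of them were below without overlap, against 20.5% of all genes. Nuclear genes of oxidative phosphorylation were negative for 74 of 77 members, all but Cox4i2, Cox6b2 and Ndufs1, with a median of -0.37 and 57 below without overlap. Mitochondrial ribosomal proteins, with 74 of 74 negative or 67 with scaling to the library total, had a median of -0.26 and 33 below without overlap. Of 37 proteasome subunits 34 were negative, or 30 with scaling to the library total, with a median of -0.28 and 21 below. The 3 positive proteasome genes, Psmb8, Psmb9 and Psmb10, encode the subunits of the immunoproteasome, which interferon induces.

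The size of these shifts depended on DM+SGLT2i replicate 1. Without it the medians were -0.12 for cytosolic ribosomal proteins, -0.13 for oxidative phosphorylation, -0.09 for mitochondrial ribosomal proteins and -0.16 for the proteasome, which was also -0.17 without DM-22 replicate 2, and without DM+SGLT2i replicate 2 they were -0.56, -0.63, -0.44 and -0.42. In DM+SGLT2i replicate 1 all 71 cytosolic ribosomal genes and 74 of the 77 oxidative phosphorylation genes lay below both untreated values, against 36% of all genes. The direction held in replicate 2, where 59 of the 71 cytosolic ribosomal genes and 57 of the 77 oxidative phosphorylation genes lay below both untreated values, against 25.1% of all genes. Rps14, a protein of the small subunit, stood at 434 and 431 CPM in DM-22 and at 239 and 335 CPM in DM+SGLT2i, and Cox7a2l, an assembly factor of respiratory supercomplexes, at 195 and 175 CPM against 106 and 146 CPM. They were the only members of these 4 lists with an unadjusted limma p under 0.05. Nuclear-retained RNAs went the other way in the same library, with Malat1 at 111 CPM against 32.3 to 41.8 CPM elsewhere and Neat1 at 98.0 CPM against 16.6 to 53.2 CPM. Their median was 0.70 and was 0.11 without DM+SGLT2i replicate 1. The part of RNA quality in these shifts was not tested.

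**Figure D5:**
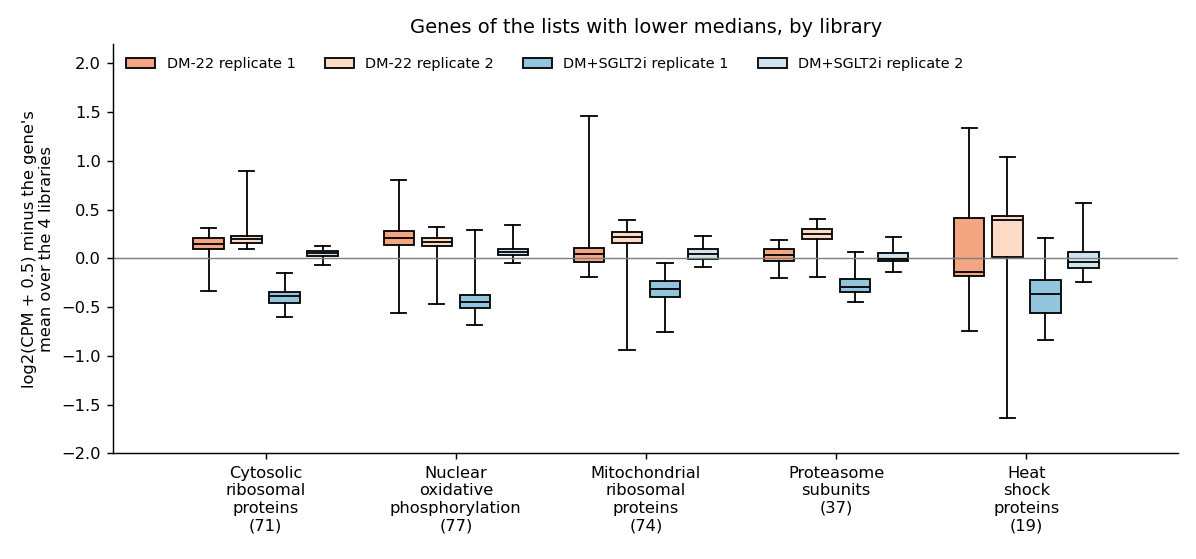
Log2(CPM + 0.5) minus each gene's mean over the 4 libraries, for the tested genes of 5 lists, with 1 box per library (line at the median, box over the quartiles, whiskers to the lowest and highest gene). In the 4 lists of ribosomal, oxidative phosphorylation and proteasome genes DM+SGLT2i replicate 1 lies lowest, with a median of -0.39 for cytosolic ribosomal proteins, and DM+SGLT2i replicate 2 lies nearer to 0, at 0.06.

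Heat shock proteins, which fold damaged proteins, were negative for 15 of 19 members, with a median of -0.40. Of the 19, 7 lay below (36.8%) and 1 above (5.26%) without overlap, against 20.5% and 21.1% of all genes. The positive members were Hspd1, Hspa4l, Cryab and Hspb8. Dnajb1, which activates HSP70, stood at 56.4 and 61.2 CPM in DM-22 and at 32.2 and 38.2 CPM in DM+SGLT2i, a difference of -0.74 ± 0.16, and Hsph1, a large chaperone, at 144 and 185 CPM against 64.4 and 104 CPM. Hspa8, the constitutive HSP70, was 1946 and 4545 CPM against 1429 and 1867 CPM. The median was -0.23 without DM+SGLT2i replicate 1 and -0.18 without DM-22 replicate 2.

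The genes with the smallest p in the lower direction formed no list. Apoh, a phospholipid-binding plasma protein, stood at 15 and 20.8 CPM in DM-22 and at 5.89 and 6.68 CPM in DM+SGLT2i, a difference of -1.42 ± 0.23 (limma, adjusted p = 0.740), and was 2.68-fold lower. Tmem37, a calcium channel subunit, was 95.7 and 155 CPM against 41.5 and 57.1 CPM, and Car9, a carbonic anhydrase that hypoxia induces, was 13.0 and 14.5 CPM against 7.38 and 8.78 CPM. All 15 such genes kept lower values in both treated libraries by the rule that chose them, and among the others were Asb9, Dnajb1, Lipo3, Omd, Nrep, Ccl28, Slc25a33, Smim6, Bri3, Rdm1 and Hsph1. The 21 hypoxia genes had a median of 0.08, and of -0.17 without DM-22 replicate 2. Their 5 above (23.8%) and 4 below without overlap were near the 21.1% and 20.5% of all genes.

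Clock genes varied more within groups than between them. The 7 activators and their partners were all negative, or 6 with scaling to the library total. Of the 7, 2 (28.6%) lay below without overlap, against 20.5% of all genes. The median was -0.52, and it was 0.04 without DM-22 replicate 2 and -0.17 without DM+SGLT2i replicate 1. Arntl, the core activator BMAL1, stood at 6.48 and 19.4 CPM in DM-22 and at 5.07 and 8.69 CPM in DM+SGLT2i. Nr1d1, which represses Arntl, was 128 and 57.1 CPM against 194 and 93.4 CPM, so that within each group the library with less Arntl had more Nr1d1. The hour of collection is not given in the sources used here.

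Cdkn1a, which encodes the cell cycle inhibitor p21 that the study turns on, did not separate the groups. The gene lies on chromosome 17 from 29090976 to 29100727 on the forward strand of GRCm38. It stood at 52.6 and 123 CPM in DM-22 and at 78.6 and 77.3 CPM in DM+SGLT2i. The treated values agreed closely and lay between the untreated ones, and the difference of -0.05 had a 95% interval from -1.10 to 1.01 (limma adjusted p = 0.981), so that a difference of either sign was not detectable at this spread. Without DM-22 replicate 2 the difference was 0.56, and without DM-22 replicate 1 it was -0.66.

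Other genes of the senescence program were as mixed. Trp53, the factor p53 that induces Cdkn1a, was 25.8 and 29.1 CPM against 35.5 and 32.8 CPM, a difference of 0.31 ± 0.16. The 45 p53 targets had a median of 0.21, and of 0.04 without DM+SGLT2i replicate 1 and -0.01 without DM-22 replicate 2. Of the 45, 14 lay above (31.1%) and 3 below (6.67%) without overlap, against 21.1% and 20.5% of all genes. Cdkn2b, which encodes p15, was 15.4 and 0.462 CPM against 2.33 and 4.73 CPM, and Cdkn2d, which encodes p19, was 8.30 and 7.19 CPM against 5.62 and 6.77 CPM. Cdkn2a, which encodes p16, stayed at or below 0.253 CPM in each library and was not tested. Lmnb1, a lamina protein lost in senescent cells, was 5.04 and 5.18 CPM against 7.26 and 5.67 CPM.

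Cell cycle genes tended to be higher. Of 32 tested, 30 were positive, all but Ccnd1 and Pcna, with a median of 0.25, and of 0.40 without DM-22 replicate 1. Their 14 above (43.75%) and 2 below (6.25%) without overlap compare with 21.1% and 20.5% of all genes. Mki67, the proliferation marker Ki-67, was 3.10 and 3.08 CPM in DM-22 and 7.91 and 5.87 CPM in DM+SGLT2i, a difference of 1.03 ± 0.24, and Cenpe, a kinetochore motor, was 1.80 and 0.763 CPM against 3.31 and 3.11 CPM. Pcna, the clamp of DNA replication, was 47.5 and 47.8 CPM against 36.7 and 42.5 CPM.

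Among the enzymes of DNA methylation and chromatin, 18 of 27 were positive with a median of 0.19. Of the 27, 12 lay above (44.4%) and 5 below (18.5%) without overlap, against 21.1% and 20.5% of all genes. The median of the 27 was 0.10 without DM-22 replicate 2. The list held 2 unlike parts. All 7 DNA methylation genes were positive and 6 lay above without overlap, with a median of 0.62, and of 0.32 without DM+SGLT2i replicate 1. Of the 20 histone modification genes 11 were positive, with a median of 0.06. Among those 20, 6 lay above (30%) and 5 below (25%) without overlap. Dnmt1, which copies methylation to new strands, stood at 22.8 and 22.9 CPM in DM-22 and at 32.8 and 28.4 CPM in DM+SGLT2i, a difference of 0.41 ± 0.16 (limma, adjusted p = 0.740). Its recruiter Uhrf1 was 1.80 and 2.80 CPM against 5.26 and 3.88 CPM. Dnmt3a and Dnmt3b, which methylate new sites, differed by 0.20 ± 0.19 and 0.46 ± 0.35. Tet2, which oxidizes methylcytosine, was 10.5 and 5.80 CPM against 36.6 and 16.3 CPM, a difference of 1.58 ± 0.47, and of 1.01 without DM+SGLT2i replicate 1. Kdm6a, a histone demethylase, was 19.9 and 16.8 CPM against 24.7 and 20.3 CPM.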

How the data were processed

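Poly(A) RNA of whole kidney was sequenced from a directional library. The authors deposited log2 CPM values with TMM scaling for 17537 genes. Their processing notes name bcl2fastq, FastQC, Trim Galore, STAR, edgeR and build mm10, and versions and the strand setting of the counting are not given in the sources used here. The deposited log2 values were turned back into CPM, and whole reads were recovered for each value within 0.001 of a read. A value at the floor of -4.66 stands for 0 reads, and each listed gene has at least 10 reads over the 7 libraries. DM+SGLT2i and DM-22, 2 libraries each, were compared on log2(CPM + 0.5) with limma 3.58.1 (R 4.3.3, two-sided moderated test with a trend, 2 residual and 3.01 prior degrees of freedom) and Benjamini-Hochberg adjustment. The log2(CPM + 0.5) scale understates changes of low genes. Tables and plots used Python 3.11.15, numpy 2.4.6, pandas 2.3.3, scipy 1.17.1 and matplotlib 3.10.9, and the fit was tested on simulated data.

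Genes named are Cdkn1a, Slc5a2, Slc5a1 and other genes the study names, the 15 higher and 15 lower genes with the smallest p whose groups do not overlap, and members of each list with the smallest p or a defining role. Other genes named with values as background to these were chosen after their values were seen. The members and gene lists were chosen with earlier results of these data known, and Umod was taken off the proximal tubule list after its values were seen. Alternatives covered the pseudocount, low-value filter, scaling, samples in the fit, recovered reads (voom), replicate block and each library left out. Some genes that these rules name are not reported here.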

Additional observations from a re-analysis of the deposited data

How the results depend on the processing

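With all 4 libraries no setting gave an adjusted call, and the smallest adjusted p by limma ranged from 0.388 to 0.879. Leaving out 1 library gave 0 to 366 adjusted calls higher and 0 to 103 lower, 95 to 1578 higher and 6 to 869 lower at an unadjusted p under 0.05, and 608 to 1729 higher and 83 to 813 lower without overlap by 1.5-fold. The calls came from leaving out a DM-22 library, which leaves fewer samples. At an unadjusted p under 0.05, a fit of all 7 libraries gave 311 higher and 234 lower, scaling to the library total gave 47 lower, and median-of-ratios scaling gave 231 lower. Without overlap by 1.5-fold, a pseudocount of 2 CPM gave 515 higher and 73 lower, a minimum of 5 CPM gave 447 higher, and scaling to the library total, which shifts the median of all genes by 0.102, gave 70 lower. With that scaling the difference of Cdkn1a after SGLT2i turned to 0.0601 and that of Slc5a2 after SGLT2i to 0.0747. Leaving out 1 library, Cdkn1a ranged from -0.66 to 0.56, Slc5a2 from -0.91 to 0.85 and Abca1 from -0.56 to 0.020. The sterol regulatory element was in 1 sterol promoter gene, and its exact letters were in 0. The cause of these changes was not tested.

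Of 578 other values of 53 named genes under settings with all 4 libraries, 576 kept their direction and side of the threshold. No such setting gave an adjusted call, so no gene could change side. Changing the filter, fitting all 7 libraries, dropping the trend or adding the replicate block leaves each gene's difference as it was. The direction could not turn under those settings, so the count of 576 does not measure robustness. Of 702 list medians under such settings 675 moved by less than the spread between replicates, and 200 of 256 did so when 1 library was left out. The sign of the median changed for 31 of 64 lists when 1 library was left out and for 18 under the other settings. Same-numbered samples did not deviate together over the genes (correlation -0.058). With 1 replicate difference per group, this value cannot show whether they share more than a number. The fit with the replicate block gave 0 adjusted calls and 536 higher and 157 lower at an unadjusted limma p under 0.05.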
